A study of Mus musculus with 3 samples.

Results

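The clustered histone genes, taken as every gene whose symbol starts with Hist1h, Hist2h, Hist3h or Hist4h, were followed across the cell types, agonist doses and *Sstr2* genotypes of developing mouse retina. The rule found 63 genes in all, 61 of the 18823 genes tabulated for explants, 63 of 17851 at P0 and 49 of 17849 at P14. The genes were chosen by name, and the family was selected in part on measured values, since *Hist1h1b* and *Hist1h2bc* differed between explants grown with 500 and 0 nM agonist, so that contrast is given here as values and counts from which nothing is read. At least 1 UMI (a counted transcript molecule) was found for 59, 63 and 49 of them, and more than 10 UMIs for 52, 61 and 35. They held 50871 of 22638572 UMIs in explants, 172522 of 50516460 at P0 and 17899 of 16851397 at P14, which is 2247, 3415 and 1062 counts per 1000000 UMIs (CPM).

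Clustered histone genes encode the linker histone H1 and the core histones H2A, H2B, H3 and H4, and are used mostly while a cell copies its DNA, when new DNA must be packed. Most of their mRNAs end in a short stem-loop that is bound by Slbp, in place of the poly(A) tail found on other mRNAs. Replacement histones, such as H3.3 from *H3f3a* and *H3f3b*, come from single genes with ordinary poly(A) tails and are made throughout the cell's life. In the newborn retina, primary and neurogenic progenitors still divide, whereas ganglion cells, amacrine cells and photoreceptors are neurons that have left the cycle.

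Single cells came from 3 MULTI-seq libraries, in which cells of several samples carry lipid-tagged barcodes and are captured together by their poly(A) RNA on the 10x 3′ platform. Explants were CD1 wild-type retinas taken at E14 and grown for 6 days on membranes with 0, 5, 50 or 500 nM of a small-molecule Sstr2 agonist, 2 samples a dose. The P0 and P14 libraries each held 1 *Sstr2* +/+, 2 *Sstr2* +/- and 2 *Sstr2* -/- retina samples, from an allele made on C57BL/6NCrl (Sstr2 em1(IMPC)Mbp), outbred to CD1 and intercrossed. The allele is carried by whole animals and is not limited to a cell type. Samples are numbered within a group only to name them.

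Depth ran from 1281682 to 4237324 UMIs and 318 to 1075 cells per explant, from 8822880 to 10793649 UMIs and 1018 to 1254 cells per P0 retina, and from 1266730 to 5886669 UMIs and 304 to 1000 cells per P14 retina. Between 4 and 9 cell barcodes were shared by any pair of libraries. The deposited cell types carried their defining markers, but P0 photoreceptors also had 1609 CPM of the primary progenitor markers, against 268 in explant photoreceptors. They had 1842 CPM of the neurogenic progenitor markers and 1420 of the photoreceptor markers. P14 cones had 10810 CPM of cone and 5799 of rod markers, against 20945 of rod markers in P14 rods. P14 bipolar cells had 4389 of bipolar, 2067 of rod and 197 of microglia markers, and P14 Müller glia 1407 of rod markers. Explant cells labelled ganglion cells had 1449 CPM of ganglion cell, 529 of amacrine and 435 of primary progenitor markers. P0 ganglion cells had 5933, 0.44 and 44.5. The paper states that its explants lack viable ganglion cells. *Sstr2* itself was not lower in retinas labelled knockout. In P0 neurogenic progenitors it had 112 CPM in the wild type, 189 and 248 in the heterozygotes and 294 and 375 in the knockouts. Where the allele's deletion lies is not given in the sources used here, so 3′ reads do not check the genotype labels. *Xist* and the Y-linked *Ddx3y* were both present in 5 of the 8 explants, while explant 1 at 5 nM and both explants at 500 nM had *Xist* with at most 2.99 CPM of *Ddx3y* in photoreceptors.

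The stem-loop that ends most of these mRNAs is shown first, because the assay reads only the 3′ end of RNA caught by its poly(A). The letters of a stem-loop, 16 bases with 6 base pairs, were searched for in each annotated transcript on mm10, and were found in 43 of the 63 genes. The same search found them in 1.4% of all protein-coding transcripts. There were 8 distinct cores, of which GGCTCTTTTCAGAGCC stood in 25 genes, and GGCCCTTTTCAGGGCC in 6, all of them H4 genes. The genes on which the later results turn read as follows, with the core in capitals and up to 5 bases on either side in lower case.
Hist1h1c: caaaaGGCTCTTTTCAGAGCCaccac
Hist1h1e: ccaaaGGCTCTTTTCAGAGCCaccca
Hist3h2ba: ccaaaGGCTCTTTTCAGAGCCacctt
Hist2h2ac: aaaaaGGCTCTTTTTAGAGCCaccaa
Hist1h3c: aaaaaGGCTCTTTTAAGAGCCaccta
Hist1h2ae: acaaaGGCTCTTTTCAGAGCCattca
Hist1h4d: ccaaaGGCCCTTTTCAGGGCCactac
Hist1h4i: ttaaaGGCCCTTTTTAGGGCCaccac
The cores lie 24 to 43 bases past the coding sequence, *Hist1h1c* at chr13:23739512-23739527, *Hist1h1e* at chr13:23621782-23621797, *Hist3h2ba* at chr11:58949349-58949364, *Hist2h2ac* at chr3:96220418-96220433, *Hist1h3c* at chr13:23745047-23745062, *Hist1h2ae* at chr13:23570668-23570683, *Hist1h4d* at chr13:23581950-23581965 and *Hist1h4i* at chr13:22040966-22040981. *Hist1h1b*, *Hist1h1a* and *Hist1h2bc* showed no such letters. The annotated transcripts of *Hist1h1b* and *Hist1h1a* are 743 and 741 bases, and *Hist1h2bc* is annotated with 2 exons over chr13:23684199-23692908. No match means only that these letters are not in the annotated transcript.

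Annotated transcripts of 21 genes ended within 100 bases of the stem-loop and those of 22 ran on for more than 100 bases, such as 151 bases past it for *Hist1h2ae*, 770 for *Hist1h4d* and 1153 for *Hist1h1e*. Genes of the second kind held 72.8% of the clustered histone UMIs in explants, 42.8% at P0 and 72.1% at P14. Genes that stop at the stem-loop held 8.85%, 20.5% and 2.46%, and genes with no stem-loop letters 18.4%, 36.7% and 25.5%. The share of the short-ended class was thus largest at P0. Its median gene had 681 UMIs there, against 34 in explants. The median was also higher at P0 in genes that ran on, 780.5 against 82.5, and in those with no stem-loop letters, 413 against 49. These are raw counts, from libraries of 50516460 UMIs at P0 and 22638572 in explants that differ in their mix of cell types. What part of these UMIs came from tailed transcripts or from priming within the RNA was not tested.

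**Figure D1:**
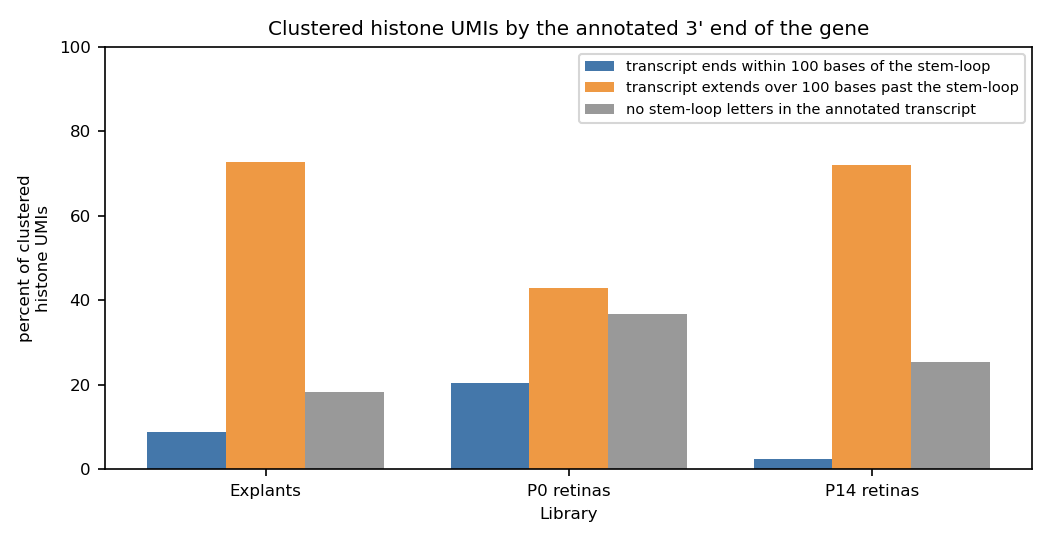
Share of clustered histone UMIs (percent, from 0 to 100) in each library by the annotated 3′ end of the gene. Genes whose transcript runs more than 100 bases past the stem-loop hold 72.8% in explants, 42.8% at P0 and 72.1% at P14, and genes that stop at it hold 8.85%, 20.5% and 2.46%.

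Of the 63 genes, 50 lie on chromosome 13, 10 on chromosome 3, 2 on chromosome 11 (*Hist3h2ba* and *Hist3h2a*) and 1 on chromosome 6 (*Hist4h4*), and 59 have a single exon. The chromosome 13 genes form a block from *Hist1h2bl* to *Hist1h2bj* at chr13:21715763-22043676 and another from *Hist1h4h* to *Hist1h1a* at chr13:23531050-23764406, with *Hist1h2aa* to the side. Of the genes, 21 have an annotated copy at 98% identity or more over at least 100 of their last 150 bases, such as *Hist1h3e* and *Hist1h3f*, or *Hist1h2ap* and *Hist1h2ao*. Reads shared by such copies are dropped in counting, so levels of single copies are uncertain. The 3′ end of *Hist1h1e* lies inside the annotated span of *Hist1h2be* on the same strand, and its counts carry the same doubt.

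As a class, the 5 linker histone genes on chromosome 13 held the largest share of the clustered histone UMIs of progenitors, and their upstream DNA is shown for that reason. Not each of them led, since *Hist1h1c*, *Hist1h1a* and *Hist1h1d* ranked 10, 12 and 16 over all P0 cells. RefSeq promoters on GRCm38.p6 were found for 57 of the genes. Searched on both strands, CCAAT stood in 86% of these 300-base windows against 37.4% of all 32851 promoters, TATAAA in 57.9% against 13.6%, AAACACA in 12.3% against 7.18% and GGGCGG in 38.6% against 35.7%. The 130 bases before the start of each H1 gene, on the gene's strand, have these letters in capitals.
Hist1h1a at chr13:23763538-23763667: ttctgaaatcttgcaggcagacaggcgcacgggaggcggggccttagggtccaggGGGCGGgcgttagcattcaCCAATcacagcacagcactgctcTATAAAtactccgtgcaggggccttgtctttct
Hist1h1b at chr13:21780626-21780755: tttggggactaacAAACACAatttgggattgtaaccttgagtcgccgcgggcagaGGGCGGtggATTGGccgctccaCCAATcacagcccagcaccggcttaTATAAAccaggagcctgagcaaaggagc
Hist1h1c at chr13:23738677-23738806: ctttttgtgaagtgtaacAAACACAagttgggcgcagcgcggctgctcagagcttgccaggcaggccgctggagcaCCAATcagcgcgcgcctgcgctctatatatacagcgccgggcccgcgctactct
Hist1h1d at chr13:23554902-23555031: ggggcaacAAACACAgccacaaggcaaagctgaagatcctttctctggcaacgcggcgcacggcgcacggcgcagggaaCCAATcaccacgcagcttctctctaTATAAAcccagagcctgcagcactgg
Hist1h1e at chr13:23622559-23622688: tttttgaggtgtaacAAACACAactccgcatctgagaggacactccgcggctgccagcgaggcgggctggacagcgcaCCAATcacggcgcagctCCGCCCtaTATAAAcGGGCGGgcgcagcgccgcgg
*Hist1h1a* and *Hist1h1b* encode H1 forms of dividing cells, and *Hist1h1c* and *Hist1h1e* forms that are also made in cells at rest. AAACACA, known from H1 promoters, stood 117 bases before the start in *Hist1h1b*, 112 in *Hist1h1c*, 122 in *Hist1h1d* and 115 in *Hist1h1e*, and was absent from the window of *Hist1h1a*. CCAAT stood 51 to 56 bases before the start in all 5, and TATAAA in 4 of them, *Hist1h1c* excepted. For *Hist1h1d* the RefSeq start lies inside the longer transcript annotated from 23553262. These matches describe letters and not bound sites.

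At P0 the summed level was highest in progenitors and lowest in ganglion cells. Progenitors had 4630 ± 840 CPM (SD, n = 5), neurogenic progenitors 3969 ± 501, photoreceptors 2252 ± 444, amacrine cells 1014 ± 63.7 and ganglion cells 462 ± 58.2. The 5 retinas of progenitors and of neurogenic progenitors overlapped, from 3314 to 5618 and from 3329 to 4468. Below them no neighbours overlapped, with photoreceptors from 1616 to 2775, amacrine cells from 924 to 1067 and ganglion cells from 397 to 534. The photoreceptor level was carried by few cells. Those above the median of both cell cycle lists described below, 186 of 1142, held 12495 of the 17729 UMIs at 5294 ± 1238 CPM. Their medians over retinas were 9877 to 14745 UMIs per cell, against 3972 to 4544 in photoreceptors low in both lists. Doublets were not removed, and the part of depth, doublets or progenitor RNA in these cells was not tested. Photoreceptors low in both lists had 870 ± 62.7 CPM, those high in S phase genes only 942 ± 127 and those high in G2 and mitosis genes only 1413 ± 776, which overlaps the range of amacrine cells.

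Explants showed a flatter order. Neurogenic progenitors had 2784 ± 605 CPM (SD, n = 8), photoreceptors 2698 ± 323, amacrine cells 1995 ± 257 and progenitors 1970 ± 268, and each of these overlapped the next in its range over explants. Cells labelled ganglion cells, with 838 ± 186 and 642 to 1272 over explants, lay below all 4. They were few, with 5 to 61 cells and 10 to 177 clustered histone UMIs per explant, and carried mixed markers as given above. Explant progenitors thus had less than P0 progenitors, with no overlap between 1685 to 2381 and 3314 to 5618. Explants and P0 retinas were separate libraries, so culture, age, strain and library cannot be told apart.

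In the P14 retina, cones had 1320 ± 125 CPM (SD, n = 5), Müller glia 1317 ± 203, rods 970 ± 90.8 and bipolar cells 908 ± 132, and each overlapped the next in its range over retinas. The 68 amacrine cells of this age ranged from 0 to 1518 over retinas and are not described further. These levels are shares of the summed UMIs of a cell type. UMIs from 3′ ends do not scale with transcript length, but capture needs poly(A), which differs between these genes, so an order of genes by CPM is an order of captured RNA.

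The histone classes had different shares by cell type. Linker histone H1 made up 50.9 ± 6.06% of the clustered histone UMIs in P0 progenitors (SD, n = 5) and 72.0 ± 2.54% in explant progenitors (n = 8). H2B made up 59.0 ± 5.34% in P0 ganglion cells, 55.0 ± 6.98% in P0 amacrine cells and 50.9 ± 4.09% in explant amacrine cells, against 8.27 ± 0.79% in P0 progenitors. Most of the H2B level of these amacrine and ganglion cells was that of *Hist3h2ba* alone, described below, and not of the class at large. H3 held 3.06 ± 0.53% and H4 2.46 ± 0.82% in explant progenitors, and 7.58 ± 0.74% and 10.9 ± 4.29% in P0 progenitors.

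*Hist1h1b*, the H1.5 linker histone, was the leading gene at P0 and high in progenitors and neurogenic progenitors. It had 1415 ± 125 CPM in P0 progenitors (SD, n = 5), 1065 ± 123 in neurogenic progenitors, 502 ± 148 in photoreceptors, 29.8 ± 24.6 in amacrine cells and 2.16 ± 2.56 in ganglion cells. At P14 it had 2 UMIs over all rods, 1 over all bipolar cells and 28 over all Müller glia. In explants it had 558 ± 142 in progenitors (n = 8), 775 ± 292 in neurogenic progenitors and 66.9 ± 21.6 in amacrine cells.

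*Hist1h1e*, the H1.4 linker histone, was the leading gene in explants, with 36.6% of the clustered histone UMIs. Its highest level was in explant photoreceptors, with 1256 ± 167 CPM (SD, n = 8), against 463 ± 89.9 in P0 photoreceptors (n = 5) and 168 ± 19.7 in rods at P14. It was 699 ± 116 in explant progenitors and 679 ± 69.2 in P0 progenitors. *Hist1h1c*, the H1.2 linker histone, was likewise highest in explant photoreceptors, at 476 ± 107, and had 87.9 ± 23.2 in P0 photoreceptors and 186 ± 8.82 in rods.

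*Hist3h2ba*, an H2B gene on chromosome 11 with an AATAAA letter group near its 3′ end, was higher in amacrine and ganglion cells than in progenitors. Amacrine cells had 983 ± 106 CPM in explants (SD, n = 8) and 521 ± 89.1 at P0 (n = 5), cells labelled ganglion cells 314 ± 105 and 261 ± 9.48, and progenitors 118 ± 14.6 and 61.2 ± 10.97. All H2B genes together had 1010 CPM in explant amacrine cells, 558 in P0 amacrine cells and 270 in P0 ganglion cells. Explant cells labelled ganglion cells also held amacrine markers, as given above. At P14 *Hist3h2ba* was 401 ± 94.8 in bipolar cells, 391 ± 65.5 in cones, 287 ± 43.1 in Müller glia and 58.3 ± 18.2 in rods. Its neighbour *Hist3h2a*, an H2A gene, was also higher in amacrine cells than in progenitors, with 117 ± 14.7 against 21.1 ± 5.93 in explants and 54.9 ± 10.2 against 9.57 ± 0.68 at P0.

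*Hist1h2bc*, an H2B gene on chromosome 13, was lower in the P0 cell types given here than in those at P14. At P14 it had 348 ± 110 CPM in Müller glia, 282 ± 56.2 in rods, 215 ± 66.02 in cones and 98.4 ± 29.2 in bipolar cells (SD, n = 5). At P0 it had 17.0 ± 6.81 in photoreceptors and 10.1 ± 3.95 in progenitors, and in explants 55.9 ± 25.0 in photoreceptors (n = 8). *Hist1h2ap*, an H2A gene with a short 3′ end, had 304 ± 29.9 in P0 progenitors and 1.36 ± 0.999 in rods, which are different cell types. P0 and P14 retinas were separate libraries, so age, cell type and library cannot be told apart in these values.

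**Figure D2:**
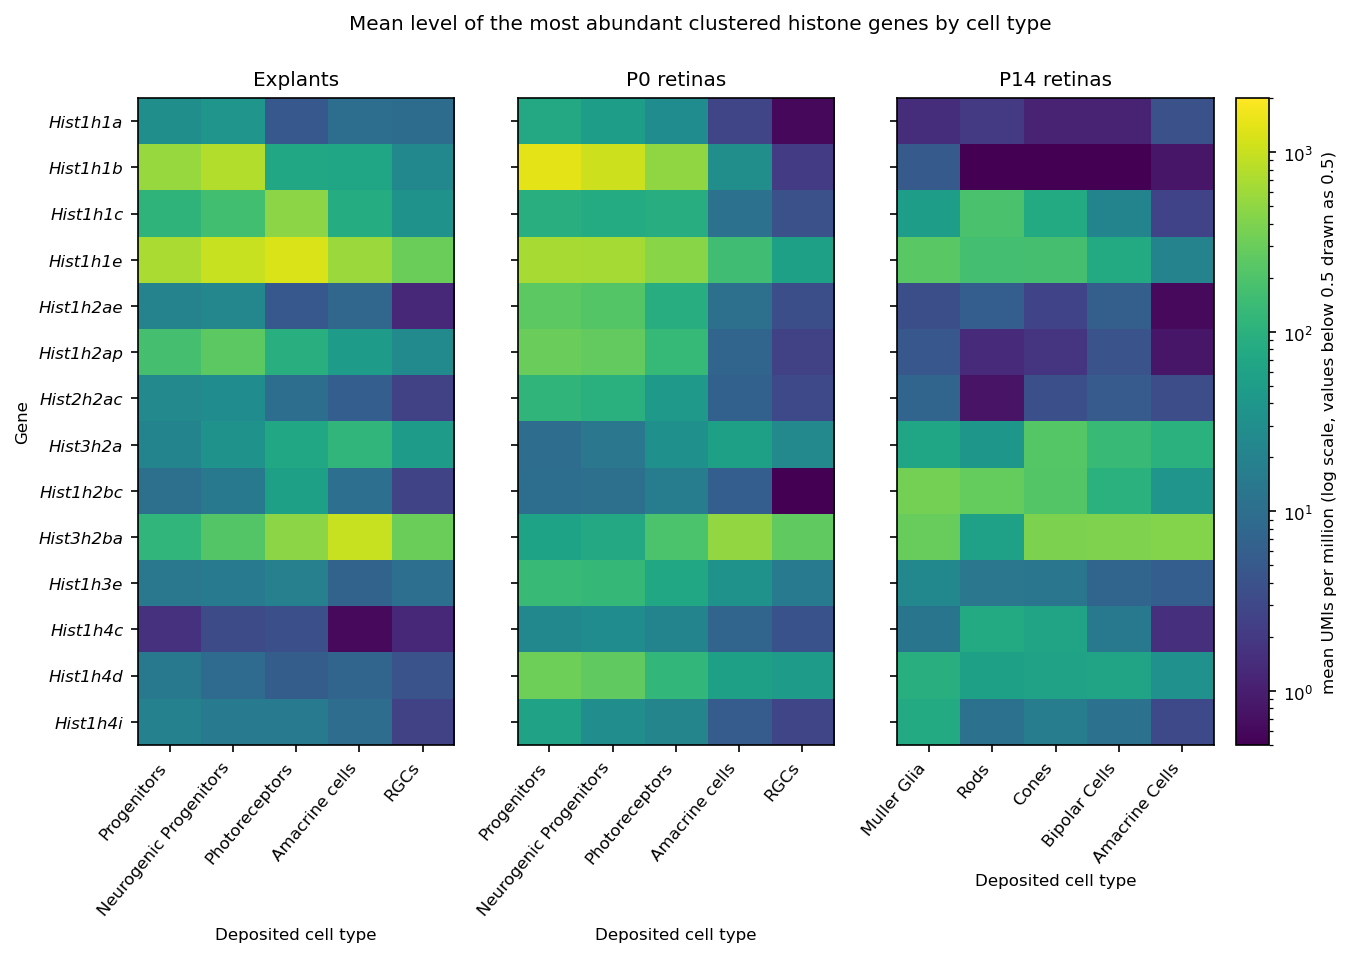
Mean CPM of the most abundant clustered histone genes (rows) in each deposited cell type (columns) of explants, P0 and P14 retinas, on a log colour scale. *Hist1h1b* is high in progenitors and near 0 at P14, while *Hist3h2ba* is high in amacrine cells and *Hist1h2bc* in Müller glia and rods.

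Cells of one type were next ranked within each sample by their share of UMIs in 30 S phase genes or 30 G2 and mitosis genes, neither list holding a clustered histone gene, after thinning each cell to 2000 UMIs, and the top and bottom 25% of cells were compared. In P0 progenitors ranked by the G2 and mitosis list, the bottom 25% had 475 ± 27.5 CPM of clustered histones and the top 25% 7511 ± 1558 (SD, n = 5), a ratio of 15.7 ± 2.63. In neurogenic progenitors that ratio was 17.9 ± 3.62. Ranked by the S phase list, the ratios were 2.00 ± 0.197 in P0 progenitors and 10.4 ± 5.01 in neurogenic progenitors. The top 25% lay above the bottom 25% in 5 of 5 retinas each time.

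Explants gave the same direction in 8 of 8 samples. The ratios were 4.66 ± 2.11 (G2 and mitosis) and 2.89 ± 0.771 (S phase) in progenitors and 4.94 ± 1.34 and 4.51 ± 1.14 in neurogenic progenitors. These means lay below those at P0, except for the S phase list in progenitors, which gave 2.00 ± 0.197 at P0. The ranking was coarser in explants. Thinned progenitors had medians of 1 to 2 UMIs of the G2 and mitosis list over explants and 2 to 7 over P0 retinas. Thinned neurogenic progenitors had 0 to 1 and 1 to 1.5. The part of this in the lower ratios was not tested. Explant photoreceptors showed 1.08 ± 0.184 and 0.989 ± 0.0917, higher in 5 and 3 of 8 explants. P0 photoreceptors, which carried progenitor markers as given above, showed 5.63 ± 1.75 and 4.20 ± 1.92, higher in 5 of 5 retinas. Thinned photoreceptors had a median of 0 UMIs of the G2 and mitosis list and 1 of the S phase list in every explant and P0 retina. Tied cells were ordered at random, so ratios near 1 in explants cannot tell a level profile from a weak ranking. Up to 174 cells of a type were too shallow to be ranked.

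When P0 progenitors were split at the median of both lists, those high in both had 10094 ± 2046 CPM, those high in G2 and mitosis genes only 5882 ± 1163, those high in S phase genes only 749 ± 445 and those low in both 542 ± 68.0 (SD, n = 5). Cells high in S phase genes only had 1541 in heterozygote 1 and 495 to 625 in the other retinas. The median of the G2 and mitosis list was 7 UMIs in heterozygote 1 and 2 to 4.5 in the others. The same split of explant progenitors gave 5028 ± 574, 1486 ± 343, 1073 ± 276 and 1011 ± 202 (n = 8). Within each of the 5 P0 retinas, cells high in both lists lay above those high in G2 and mitosis genes only, from 6868 against 4219 in knockout 2 to 12219 against 7379 in the wild type. In explants, cells high in both lists lay above the other 3 classes with no overlap over samples. Depth differed between these classes, with medians of 10943 to 13269 UMIs per cell over P0 retinas in cells high in G2 and mitosis genes only and 6222 to 7316 in those low in both, and its part was not tested.

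**Figure D3:**
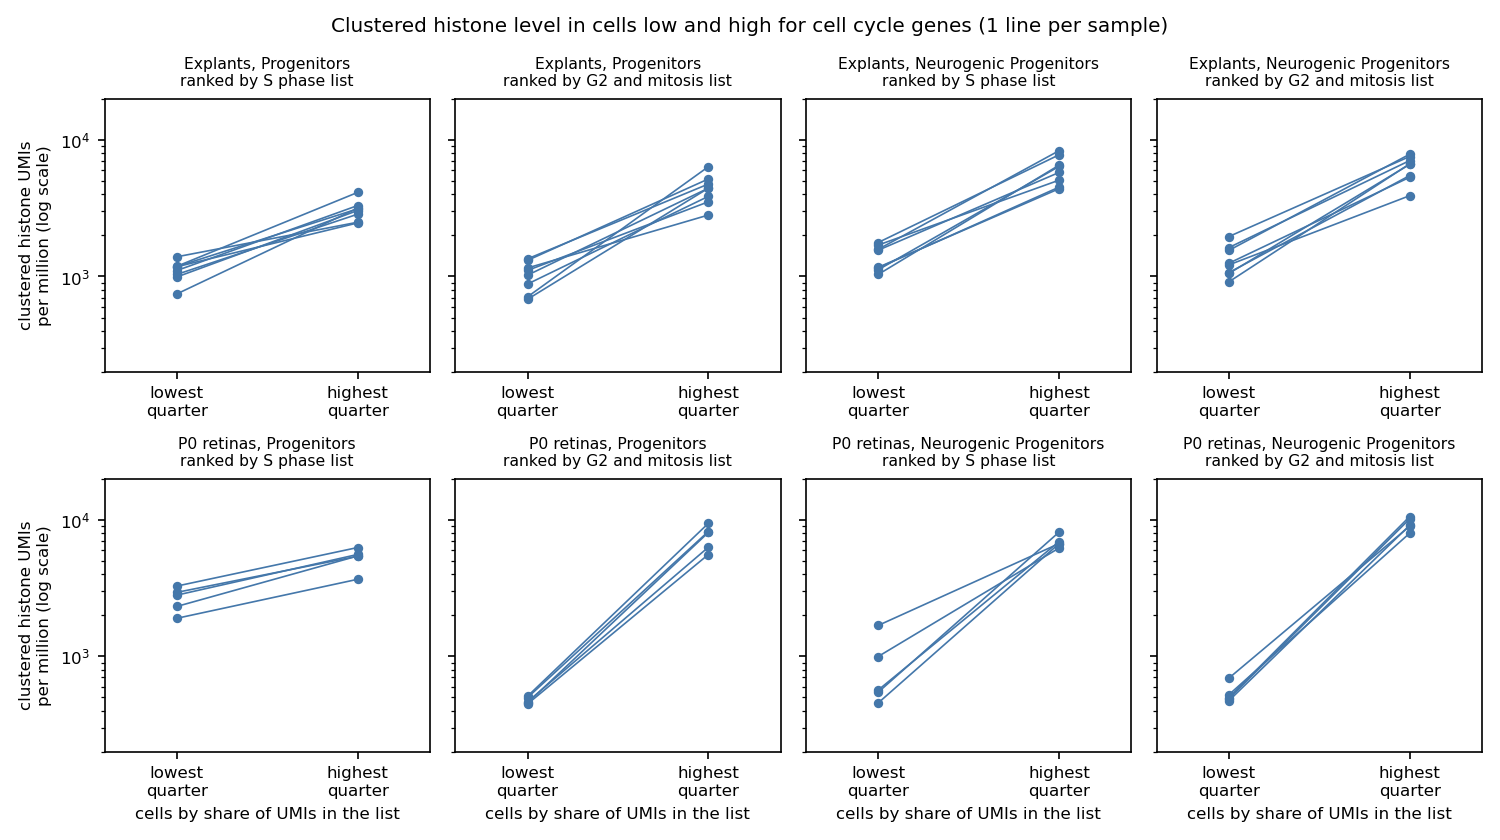
CPM of clustered histone genes (log axis) in the bottom and top 25% of cells by the S phase or the G2 and mitosis list, with 1 line per explant or P0 retina. All lines rise in progenitors and neurogenic progenitors, the cell types drawn.

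Single genes differed in this. In P0 progenitors, *Hist1h1b* had 27.8 ± 3.62 CPM in the bottom 25% and 2226 ± 238 in the top 25% by G2 and mitosis genes (SD, n = 5), while *Hist1h1e* had 188 ± 9.18 and 1043 ± 118, *Hist1h1c* 18.9 ± 4.35 and 156 ± 22.6, and *Hist1h4d* 29.1 ± 20.4 and 646 ± 449. *Hist3h2ba* had 45.9 ± 12.7 and 87.9 ± 20.02. Of 58 genes with 20 UMIs or more in both classes together, 53 were higher in the top 25% in every retina. The same count was not made over all genes, and a gene could enter by its UMIs in the top 25% alone. The count is therefore a description and not a trait of the family.

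By the S phase list, 28 of 56 genes were higher in every retina and 4 in none, *Hist1h2ag*, *Hist1h2bc*, *Hist2h2ab* and *Hist3h2ba*. *Hist3h2ba* had 70.6 ± 14.2 CPM in the bottom and 41.6 ± 4.10 in the top 25% of P0 progenitors and 154 ± 39.4 and 80.9 ± 24.9 in explant progenitors, lower in 5 of 5 and 8 of 8 samples. Genes known to make polyadenylated mRNA (10 listed, among them *Hist1h1c*, *Hist1h2bc*, *Hist1h4h*, *Hist3h2a* and *Hist3h2ba*) were higher in every retina in 3 of 9 cases, and the others in 25 of 47. For the S phase list too, no count over all genes was made, and nothing is read from these counts. Among replacement histones, *H2afz*, the H2A.Z gene, had 2572 ± 138 and 7001 ± 230 by the G2 and mitosis list, and *H3f3a*, an H3.3 gene, 2483 ± 44.2 and 2685 ± 93.9.

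Replacement histones, whose mRNAs carry the tail the assay captures, cannot be set against clustered ones as levels for that reason. They had 16614 ± 515 CPM for 10 genes in P0 progenitors and 8175 ± 472 in rods (SD, n = 5). The 17 listed genes of histone mRNA synthesis and processing, such as *Slbp* and *Npat*, had 1002 ± 23.3 in P0 progenitors, 393 ± 35.5 in ganglion cells and 331 ± 19.4 in rods.

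Some clustered histone genes differed widely between single P0 retinas. *Hist1h4d*, an H4 gene, had 641 CPM in the progenitors of the wild-type retina, 322 and 274 in heterozygotes 1 and 2, and 328 and 31.6 in knockouts 1 and 2. *Hist1h2ae*, an H2A gene, had 470, 238, 234, 247 and 42.5 in the same order, and *Hist1h3c*, an H3 gene, 138, 70.1, 60.7, 66.1 and 8.62. The wild type was highest and knockout 2 lowest for each, with 165 *Hist1h4d* UMIs in knockout 2, and the 2 knockouts lay 10.4 times apart for this gene.

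The same order held for *Hist1h2bb*, an H2B gene, with 36.2, 18.9, 15.5, 16.6 and 2.49, and for *Hist1h4i*, an H4 gene of the other block, with 92.3, 62.0, 60.0, 69.8 and 13.8. *Hist1h2bl*, an H2B gene, had the reverse order, with 2.14, 16.7, 10.98, 15.8 and 24.1. *Hist1h1b* varied little by contrast, with 1417, 1510, 1459, 1487 and 1200, as did *Hist1h1e*, with 660, 723, 679, 757 and 575. The retinas were compared by their labels after this order had been seen, so it is given as a description.

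Of the 55 clustered histone genes with 50 UMIs or more in P0 progenitors, 28 (50.9%) were highest in the wild type and lowest in knockout 2, against 4.14% of all 11233 such genes. By position this was 19 of 26 genes in the chromosome 13 block from *Hist1h4h* to *Hist1h1a*, 8 of 19 in the block from *Hist1h2bl* to *Hist1h2bj* and 1 of 10 on other chromosomes. A level in knockout 1 at least 4 times that in knockout 2 was found for 7 of the 55 (12.7%), against 0.196% of all genes. Neurogenic progenitors gave 12 of 37 (32.4%, against 4.6%) and photoreceptors 7 of 34 (20.6%, against 5.09%) with the wild type highest and knockout 2 lowest. The order was chosen on values of these same retinas, and the genes that showed it first are among those counted. Many of the genes are also neighbours, so the shares only describe these retinas.

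Sex and cell cycle genes were read beside this order. *Xist* had 1269 CPM in progenitors of heterozygote 1 and 1275 in those of knockout 2, and at most 3.06 in the other 3 retinas. Knockout 2 also had the lowest level of the G2 and mitosis list, 6299 CPM against 6857 to 7216 in the others, and the highest of the S phase list, 4155 against 3610 to 3867. The part of these in the order was not tested. Knockout 1 lay close to the heterozygotes for *Hist1h4d*, *Hist1h2ae* and *Hist1h3c*, so the low level of knockout 2 is a difference between 2 retinas of one genotype label. The wild type is 1 retina, and for its high level animal and genotype cannot be told apart.

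**Figure D4:**
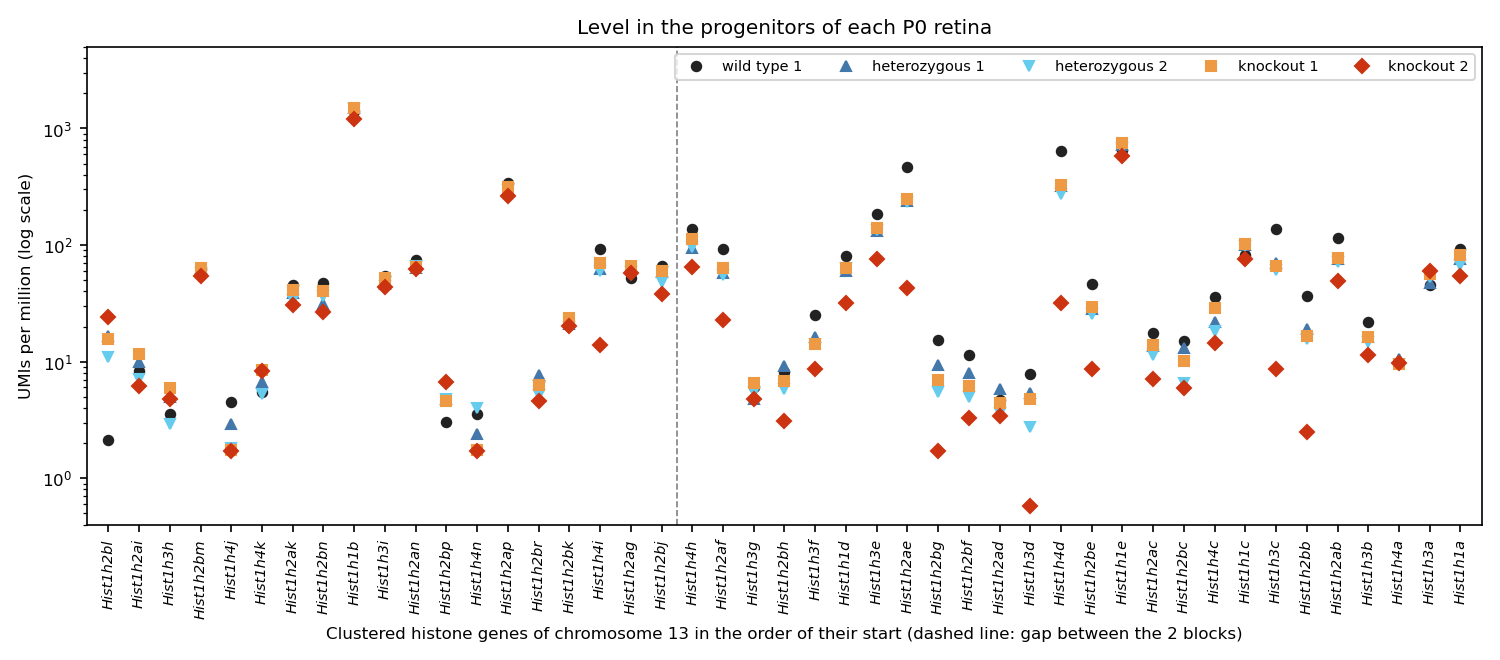
CPM (log axis) of the clustered histone genes of chromosome 13 in progenitors of each P0 retina, in order of position. For *Hist1h4d*, *Hist1h2ae* and *Hist1h3c* the wild type lies highest and knockout 2 lowest, while *Hist1h1b* and *Hist1h1e* are close in all 5 retinas.

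At P14, *Hist1h4d* was again low in one retina, which is a different animal from P0 knockout 2. In Müller glia it had 75.8 CPM in the wild type, 144 and 81.0 in the heterozygotes and 149 and 6.67 in knockouts 1 and 2, the last from 4 UMIs. Bipolar cells had 49.2, 89.0, 96.9, 73.1 and 12.5 in this order. In rods, however, knockout 2 was not low, with 49.1, 65.5, 55.3, 43.8 and 68.5. Explant progenitors varied too. *Hist1h2ae* had 2.26 and 8.94 CPM at 0 nM, 65.4 and 34.7 at 5 nM, 7.21 and 7.43 at 50 nM, and 0 and 35.5 at 500 nM, so the 2 explants at 500 nM lay further apart than those at 0 or 50 nM.

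The genotype comparison asks what loss of *Sstr2* does to these genes, and at P0 none of them passed between retinas labelled knockout and heterozygous. With edgeR quasi-likelihood tests and Benjamini-Hochberg adjusted p-values, 0 of 59 genes passed in progenitors (0.00838% of all 11939 genes did), 0 of 44 in neurogenic progenitors (0.0111%), 0 of 37 in photoreceptors (0.0592%) and 0 of 20 in amacrine cells (0.0386%). An unadjusted p under 0.05 was seen for 1, 7, 6 and 4 of them, against 3.58%, 4.14%, 6.87% and 4.29% of all genes, and DESeq2 called 0 in each. Each group held 1 *Xist*-positive and 1 *Xist*-negative retina.

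*Hist3h2ba* had the lowest p in 3 of these cell types. In neurogenic progenitors it had 39.6 and 65.8 CPM in heterozygotes and 85.9 and 102 in knockouts, with 82.6 in the wild type, and the log2 fold change was 0.82 (SE 0.22, edgeR adjusted p = 0.989). In amacrine cells it had 450 and 467 against 495 and 673, with 519 in the wild type (log2 fold change 0.37, SE 0.12, edgeR adjusted p = 0.959), and in progenitors 45.1 and 60.7 against 62.4 and 76.1, with 61.8 in the wild type (0.38, SE 0.16, edgeR adjusted p = 0.997). The groups did not overlap in these 3 types, but the wild type lay within the range of the others.

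In photoreceptors the lowest p was that of *Hist2h2ac*, an H2A gene, with 74.2 and 46.7 CPM in heterozygotes, 25.6 and 29.6 in knockouts and 44.5 in the wild type (log2 fold change -1.12, SE 0.25, edgeR adjusted p = 0.261). The median log2 fold change of the 37 clustered genes was -0.40 there, beside -0.00 over all genes, and 5 genes had both knockouts below both heterozygotes (19.8% of all genes did). The G2 and mitosis list moved with it, with all 30 genes lower (median -0.73) and 0 past the threshold, as did the S phase list, with 29 of 30 lower (median -0.49) and 0 past it. The part of progenitor RNA in this was not tested.

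Neurogenic progenitors went the other way, with a median log2 fold change of 0.18 over 44 genes (but -0.16 against the wild-type retina). In 14 of these genes both knockouts lay above both heterozygotes (15.5% of all genes). The median in progenitors was -0.09 and in amacrine cells -0.08. Leaving out knockout 1, so that knockout 2 stood alone and was taken to vary like the other groups, gave 8 genes past the threshold in progenitors (0.126% of all genes), *Hist1h4d*, *Hist1h2ae*, *Hist1h3c*, *Hist1h2bb*, *Hist1h4i*, *Hist1h2af*, *Hist1h3e* and *Hist1h2be*. It gave 2 in neurogenic progenitors (0.235% of all genes), 12 in photoreceptors (0.853%) and 3 in amacrine cells (0.504%). Leaving out knockout 2 gave 0 in all 4 (0.0253%, 0.202%, 0.155% and 0.659% of all genes). Leaving out heterozygote 1 gave 1 in photoreceptors, *Hist1h1c* (0.252%).

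The wild type is 1 retina, whose spread was taken from the heterozygotes and knockouts, so this comparison has no replicate check on the wild-type side. Against it, 0 of 59 genes passed in progenitors (0.0251% of all genes did) and 0 of 44 in neurogenic progenitors (0.0334%), by edgeR with both knockouts. An unadjusted p under 0.05 was seen for 21 of 59 (3.87% of all genes) and 14 of 44 (4.9%). DESeq2 called 1 in progenitors, *Hist1h2bl*, whose values are given above (edgeR log2 fold change 3.19, SE 0.45, adjusted p = 0.237). In neurogenic progenitors *Hist1h3c* had 159 CPM in the wild type and 63.2 and 25.8 in knockouts 1 and 2 (log2 fold change -1.84, SE 0.31, edgeR adjusted p = 0.0826). Without knockout 1 the counts were 12 and 10 (0.218% and 0.437% of all genes were called), and without knockout 2 they were 0 and 2 (0.0338% and 0.427%). Those fits set 1 retina against 1, with the spread of the 2 heterozygotes alone, and compare retinas and not genotypes. Both knockouts lay below the wild type for 36 of 59 genes in progenitors (28.9% of all genes) and above it for 10 (38.2%). In neurogenic progenitors they lay below it for 22 of 44 (32.7%) and above it for 15 (33.6%).

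At P14 also, 0 genes passed between retinas labelled knockout and heterozygous, of 14 tested in rods (0.0106% of all genes did), 7 in bipolar cells (0.137%) and 13 in Müller glia (0.102%), by edgeR. Unadjusted p was under 0.05 for 4, 2 and 2 of them, against 2.89%, 3.45% and 3.27% of all genes, and DESeq2 called 0 in each. *Hist1h4h*, an H4 gene, had the lowest p in rods, with 15.8 and 10.8 CPM in heterozygotes and 6.74 and 2.77 in knockouts (log2 fold change -1.61, SE 0.52, edgeR adjusted p = 1.00). *Hist1h4d* had it in bipolar cells (-1.06, SE 0.40, edgeR adjusted p = 0.999), from the values above.

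*Hist1h1c* had it in Müller glia, with 28.0 and 20.2 against 76.3 and 51.7, and 75.8 in the wild type (log2 fold change 1.27, SE 0.37, edgeR adjusted p = 0.671). *Hist1h2bc* had 343 and 302 CPM in rods of heterozygotes, 294 and 190 in knockouts and 279 in the wild type (log2 fold change -0.45, SE 0.16, edgeR adjusted p = 1.00). Without knockout 1, *Hist1h4d* alone of the clustered genes passed in bipolar cells (0.13% of all genes) and in Müller glia (0.337%). Both knockouts lay below both heterozygotes for 5 of 14 genes in rods (13.5% of all genes) and 3 of 7 in bipolar cells (14.7%), and above them for 0 of 7 in bipolar cells (15.3%) and 4 of 13 in Müller glia (18%).

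The agonist comparison asks how these genes move with dose. Between 500 and 0 nM, the contrast that chose the family, *Hist1h1b* in neurogenic progenitors had 1095 and 1215 CPM at 0 nM, 501 and 968 at 5 nM, 755 and 729 at 50 nM, and 497 and 443 at 500 nM. *Hist1h2bc* in photoreceptors had 72.2 and 100.2, 68.8 and 65.8, 36.8 and 30.2, and 43.4 and 29.8. *Hist1h2ap* in progenitors had 135 and 73.3, 136 and 180, 271 and 169, and 175 and 240. Both *Xist*-only explants at 500 nM lie on 1 side of this contrast, and sex and dose cannot be told apart in it.

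As a description of the contrast that chose the family, edgeR called 1 of 19 genes in progenitors (0.317% of all genes), 1 of 11 in neurogenic progenitors (0.0988%), 1 of 10 in photoreceptors (0.0941%) and 0 of 11 in amacrine cells (0.269%). *Hist1h1b* and *Hist1h2bc*, on which the family was chosen, are the calls in neurogenic progenitors and photoreceptors. Every sample at 500 nM lay below every one at 0 nM for 3 of 19 genes in progenitors (14.9% of all genes), 8 of 11 in neurogenic progenitors (16.9%), 6 of 10 in photoreceptors (18.3%) and 7 of 11 in amacrine cells (18%), and above every one for 2 of 19 in progenitors (22.8%). Nothing is read from any of these counts.

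The samples at 50 and 5 nM were not the ones compared in the contrast that chose the family. All explants shared the estimate of spread, however, so the 2 contrasts are not independent. Between 50 and 5 nM, *Hist1h1e* was lower at 50 nM in photoreceptors and amacrine cells and *Hist1h1c* in photoreceptors. No other clustered H1 gene passed. In photoreceptors *Hist1h1c* had 516 and 595 CPM at 5 nM and 294 and 416 at 50 nM (log2 fold change -0.61, SE 0.12, edgeR adjusted p = 0.0141), and *Hist1h1e* had 1389 and 1399 against 978 and 1029 (-0.46, SE 0.097, edgeR adjusted p = 0.0164). These were 2 of 10 genes tested, where 0.108% of all genes passed. In amacrine cells *Hist1h1e* had 593 and 730 against 382 and 446 (-0.70, SE 0.11, edgeR adjusted p = 0.00157), as the 1 gene of 11 to pass (0.0122% of all genes did).

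DESeq2 called 0 of these. *H1f0*, the replacement linker histone H1.0, also passed in photoreceptors (log2 fold change -0.55, SE 0.13, edgeR adjusted p = 0.0397), and no other replacement histone did in the 4 cell types. Every sample at 50 nM lay below every one at 5 nM for 6 of 10 genes in photoreceptors (17.8% of all genes), 8 of 11 in amacrine cells (16.7%) and 7 of 19 in progenitors (14.5%). In neurogenic progenitors it was 2 of 11 (16.5%), near the share of all genes. Those above were 2 of 10 in photoreceptors (17.4%), 1 of 11 in amacrine cells (17.4%), 1 of 19 in progenitors (19.6%) and 0 of 11 in neurogenic progenitors (17.8%). In progenitors and neurogenic progenitors edgeR called 0 of 19 genes (0.0235%) and 0 of 11 (0.0329%), with 5 and 3 at an unadjusted p under 0.05 (4.59% and 5.11% of all genes), and DESeq2 called 0. The lowest p there was that of *Hist1h2ae*, with log2 fold changes of -2.53 (SE 0.60, edgeR adjusted p = 0.252) and -2.58 (SE 0.60, edgeR adjusted p = 0.0844).

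Levels at the outer doses did not continue this step. *Hist1h1e* in photoreceptors had 1319 and 1403 CPM at 0 nM and 1228 and 1300 at 500 nM, and in amacrine cells 551 and 672, and 642 and 565. The lowest 2 explants were those at 50 nM in both cell types. Each 50 against 5 nM call rested on few samples. Without 50 nM explant 1 or without 5 nM explant 2, 0 clustered genes passed in photoreceptors and 0 in amacrine cells, and without 50 nM explant 2 or 5 nM explant 1 *Hist1h1c* alone of the clustered genes passed in photoreceptors. Over these omissions the log2 fold change of *Hist1h1e* ran from -0.50 to -0.43 in photoreceptors and from -0.83 to -0.51 in amacrine cells, and that of *Hist1h1c* from -0.92 to -0.43 in photoreceptors. Of the 17 listed genes of histone mRNA synthesis and processing, 9 to 16 were tested in each comparison of dose or genotype, with 0 calls in either direction.

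**Figure D5:**
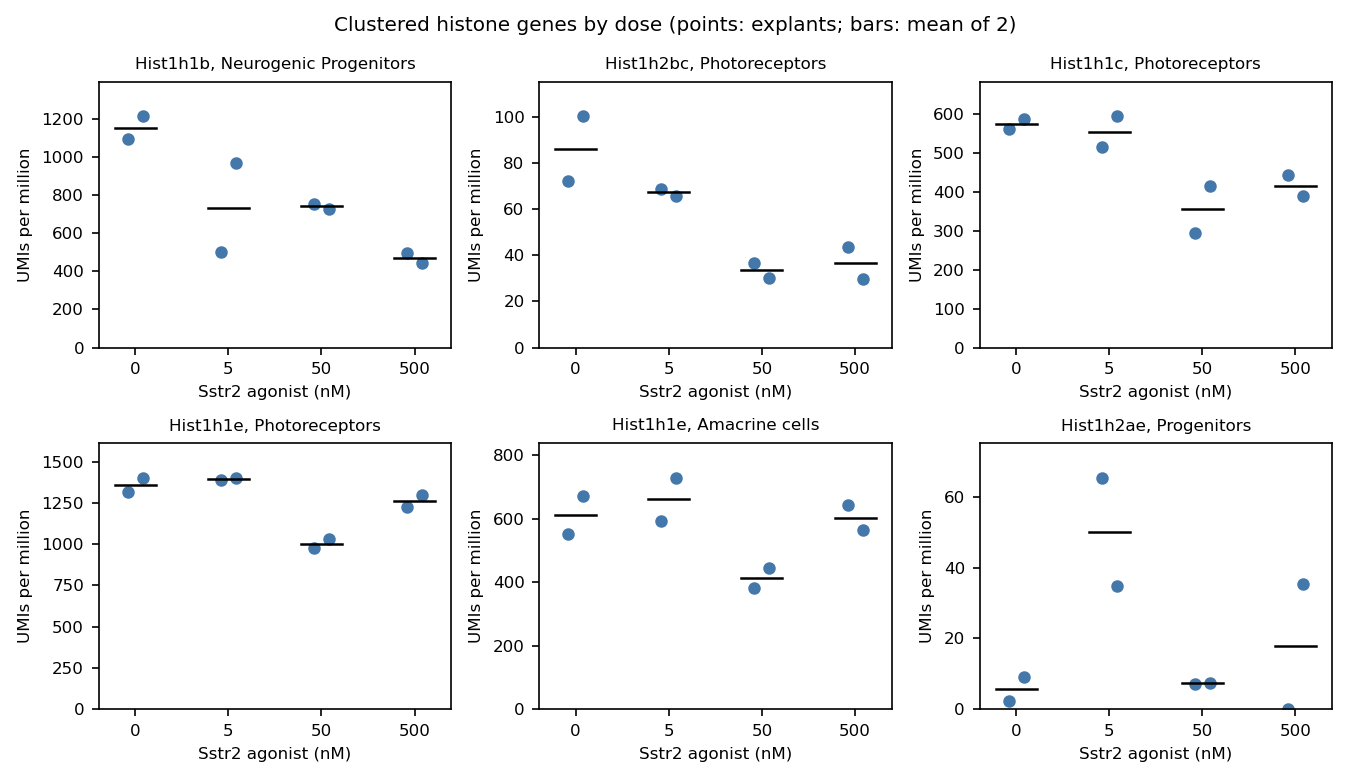
CPM by agonist dose (0, 5, 50 and 500 nM) for 5 clustered histone genes in the cell types named above each panel, with 1 point per explant and a bar at the mean of 2. *Hist1h1e* is lowest at 50 nM in photoreceptors and amacrine cells, and *Hist1h2ae* in progenitors is highest in the 2 explants at 5 nM and in 1 of those at 500 nM.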

How the data were processed

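The deposited tables used here hold raw UMI counts per gene and cell, which the authors made with Cell Ranger 3.1.0 on mm10 and Seurat 3 (the submitters' processing notes), after assigning cells to samples with deMULTIplex. The deposited SCT values were not used here. Cell types and samples were taken from the authors' cell tables, and doublets were not removed. The UMIs of all cells of 1 type in 1 sample were added up and given per 1000000 UMIs (CPM). Each library and cell type was fitted over all groups with edgeR 4.0.16 (R 4.3.3) by the quasi-likelihood test, with TMM scaling, filterByExpr, Benjamini-Hochberg adjustment over all genes and a threshold of 0.05. Other settings were DESeq2 1.42.0, other scalings, no filter, cells with the most UMIs left out and single samples left out. The fit was first tested on simulated counts with known changes.

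Genes were named by rule, namely *Hist1h1b* and *Hist1h2bc*, the 8 most abundant in each library, those past the threshold or else with the lowest p in each comparison, and up to 4 of each list. *Hist1h2bb* and the order of the P0 retinas were chosen after values were seen. The family and lists were chosen with earlier results of these data known. Samples are barcodes in 1 pooled library each, and how many retinas an explant sample held is not stated. The p-values therefore set group differences against the spread between these samples, estimated over all groups of a library and cell type. Gene structures came from GENCODE M21 and promoters from RefSeq, where 63 genes matched and 57 had a promoter. Intervals of counting error are not given, and depth limits genes with few UMIs.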

Additional observations from a re-analysis of the deposited data

Results flagged for a closer look

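For the named genes, in 11 of 290 pairs of cell types with the same contrast (3.79%, against 5% of such pairs over all genes), every sample of one type moved one way and every sample of the other the opposite way. This share lies below that of all genes, and no difference was tested. Between 50 and 5 nM, *Hist3h2ba* had a log2 fold change of -0.26 in explant progenitors and 0.27 in photoreceptors, a difference of -0.523, and of 0.27 in photoreceptors and -0.14 in amacrine cells, a difference of 0.411.

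Between retinas labelled knockout and heterozygous, *Hist3h2ba* had 0.38 in P0 progenitors, 0.82 in P0 neurogenic progenitors, 0.37 in P0 amacrine cells and 0.44 in P14 rods against -0.24 in P14 Müller glia, differences of 0.627, 1.06, 0.608 and 0.683. *Hist3h2a* had 0.52 in P0 neurogenic progenitors against -0.45 in P14 rods and -0.55 in P14 bipolar cells, differences of 0.963 and 1.07. *Hist1h4i* had -1.41 in P0 photoreceptors and -1.23 in P0 amacrine cells against 0.51 in P14 Müller glia, differences of -1.92 and -1.74. *Hist2h2ac* had 0.20 in P0 neurogenic progenitors and -1.12 in P0 photoreceptors, a difference of 1.32. P0 and P14 values come from different animals and libraries, and cell types of 1 age from the same retinas.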

How the results depend on the processing

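Of 85 counts of called genes under other settings, 70 stayed within 1.5 times the reported count, and no direction of a named gene reversed. Most reported counts were 0, and 0 against 0 was scored as unchanged, so this share says little of stability. Of 70 values of named genes under these settings, 3 lost and 8 gained a pass at the threshold. Counts between 500 and 0 nM, the contrast that chose the family, are given as a description only. DESeq2 called 0 where edgeR called 1 in progenitors, neurogenic progenitors and photoreceptors between 500 and 0 nM, 0 for the 2 in photoreceptors and the 1 in amacrine cells between 50 and 5 nM, and 1 for the 0 of P0 progenitors between knockout and wild type. With no filter on low counts the calls were 2 in progenitors between 500 and 0 nM, 3 in progenitors and 1 in neurogenic progenitors between 50 and 5 nM, 8 in photoreceptors and 2 in amacrine cells between P0 knockout and heterozygous, and 1 in progenitors and 2 in neurogenic progenitors between P0 knockout and wild type. Without the 5% of cells with the most UMIs they were 0 in progenitors between 500 and 0 nM and 1, *Hist1h3c*, in neurogenic progenitors between P0 knockout and wild type, and P0 ganglion cells had 556.4 CPM. Averaging cells gave 3297 in P0 neurogenic progenitors, 1514 in P0 photoreceptors and 674.7 in P14 bipolar cells. The S phase ratio of P0 progenitors was 2.455 with no thinning and 1.789 with the top and bottom 1 in 3 cells. The cause of these shifts was not tested.

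Leaving out 1 sample gave 0 to 3, 1 to 2, 0 to 1 and 0 to 1 calls between 500 and 0 nM in progenitors, neurogenic progenitors, photoreceptors and amacrine cells (the 3 without 500 nM explant 1, where all calls rose from 27 to 241), and 0, 0 to 1, 0 to 1 and 0 to 1 between 50 and 5 nM. It gave 0 to 8, 0 to 2, 0 to 12 and 0 to 3 between P0 knockout and heterozygous, 0 to 12 and 2 to 10 between P0 knockout and wild type in progenitors and neurogenic progenitors, and 0, 0 to 1 and 0 to 1 at P14 in rods, bipolar cells and Müller glia. No paired analysis was possible because the labels give no number that groups share, so the replicate block was not run. At P14 only 35 genes had more than 10 UMIs over the whole library, and only 14, 7 and 13 were tested in rods, bipolar cells and Müller glia. Changes in the genes not tested in a cell type were not detectable there at this depth.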
